A study of Mus musculus with 12 samples.

Results

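The mRNAs described here are 10 messages of the integrated stress response, Atf4, Atf5, Ddit3, Ppp1r15a, Ppp1r15b, Trib3, Asns, Sesn2, Chac1 and Ifrd1, in mouse 3T3-L1 cells before and after induction of adipogenesis. They were chosen by name, as mRNAs with regulatory upstream open reading frames (uORFs) or as targets of the transcription factor ATF4, and found on the array through the transcript accession of each probe. They were measured by 12 of 41174 non-control probes and are 10 of 18217 genes paired with a symbol. Ppp1r15b and Trib3 had 2 probes each, and the probe with the higher mean signal over all arrays stands for the gene unless the second probe is named.

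3T3-L1 is an embryonic fibroblast line of preadipocytes that can be turned into fat cells. Confluent, uninduced cells (0 h) were compared with cells 6 h after a change to fetal bovine serum with 0.5 mM isobutylmethylxanthine (a phosphodiesterase inhibitor), 1 µM dexamethasone (a glucocorticoid) and 5 µg/ml insulin. Cells of all groups were lysed in buffer with cycloheximide, which holds ribosomes on the mRNA, and lysates were spun through sucrose gradients. RNA of gradient fractions 5 to 7 formed the non-polysomal pool (np0 and np6) and RNA of fractions 9 to 11 the polysomal pool (p0 and p6), each with 3 biological replicates on one-color Agilent arrays. The fraction between the pools was not measured.

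Phosphorylation of the initiation factor eIF2 lowers initiation on most mRNAs, while a few with uORFs in the leader, Atf4 being the best known, are translated better. In cells without stress the uORFs keep most ribosomes from the main reading frame, so such an mRNA can be abundant and still carry few ribosomes. ATF4 protein then activates genes of amino acid synthesis and transport, of the stress-linked transcription factors, and of the phosphatase subunit that removes the phosphate from eIF2 again. An mRNA in the dense part of a gradient carries several ribosomes, but the gradient does not tell which reading frame they occupy.

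All 12 probes were well above background on all 12 arrays, and no spot on any array was saturated. The 75th percentile of the processed signal was 241 to 281 on the non-polysomal and 426 to 567 on the polysomal arrays. Signals were taken to the log2 scale and scaled by spike-in transcripts, which are given in proportion to RNA, so a difference compares signal per amount of RNA and not numbers of molecules. The spike-in offset was -0.48 to -0.21 on the p6 arrays and 0.05 to 0.18 on the others. The median over all probes was 0.15 for p0 - np0, 0.68 for p6 - np6, 0.54 for p6 - p0, 0.04 for np6 - np0 and 0.49 for the M-value, (p6 - np6) - (p0 - np0). With arrays scaled to their 75th percentile instead, these medians were -0.74, -0.63, 0.05, -0.02 and 0.06. All 9 fibroblast and preadipocyte markers were well above background on all 12 arrays, as were 5 of 7 markers of mature adipocytes, 2 of 4 of macrophages and leukocytes (Csf1r and Lyz2), 1 of 4 of epithelial cells (Krt8) and 0 of 4 of endothelial cells. Csf1r rose with time in the polysomal fraction by 1.78 and in the non-polysomal fraction by 1.04. The changes of Lyz2 were 0.52 and -0.26, and Ptprc and Adgre1 were well above background on 1 array each. The part of these markers in the results below was not tested. In bulk RNA, fewer cells of a type and less RNA per cell cannot be told apart.

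Short promoter stretches are shown for the members whose RefSeq promoter window held a motif known from this pathway. The window ran from 250 bases before to 50 after the start (build GRCm38.p6). Chac1, Trib3 and Asns had the highest M-values of the members, while that of Ppp1r15a was -0.06. The stretches were printed with these M-values known, and a link between motif and M-value was not tested. Windows were given for 9 of the 10 genes, all but Ppp1r15b. Each stretch reads 5′ to 3′ along the gene's strand, capitals mark the match, and the position is that of its first base, counted from the start of the transcript.
Chac1 at -194, chr2:119351023-119351081, plus strand: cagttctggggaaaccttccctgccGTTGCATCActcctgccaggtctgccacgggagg
Trib3 at 14, chr2:152344029-152344057, minus strand: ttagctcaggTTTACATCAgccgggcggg
Asns at -23, chr6:7693210-7693257, minus strand: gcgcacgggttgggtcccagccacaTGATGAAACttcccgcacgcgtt
Chac1 at -250, chr2:119350992-119351024, plus strand: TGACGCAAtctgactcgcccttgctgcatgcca
Ppp1r15a at -12, chr7:45526269-45526305, minus strand: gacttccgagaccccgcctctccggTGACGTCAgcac

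The first 3 stretches match TGATGNAAN on either strand, the letters of the C/EBP-ATF response element through which ATF4 acts. It was found in 3 of 10 windows of the members and in 3.95% of all 32851 windows. TGACGNAA, a related composite, was found in 1 of the 10 windows and in 1.59% of all, and TGACGTCA, the cAMP response element, in 1 of the 10 and in 1.79% of all. The ER stress response element was found in none of the members' windows and in 0.119% of all. The printed matches do not overlap each other, and none of them was tested for binding.

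The first question was where these mRNAs lay on the gradient before induction. They fell on both sides. The mRNAs of the transcription factors Atf4, Atf5 and Ddit3 and of the phosphatase subunit Ppp1r15a were more abundant in the non-polysomal RNA, and those of Asns, Trib3, Ifrd1, Ppp1r15b and Sesn2 in the polysomal RNA. At an adjusted p below 0.05 in limma with Benjamini-Hochberg adjustment over all probes, 5 of 10 genes were higher and 4 lower in p0 than in np0, against 37% and 15% of all probes. With a difference of more than 2-fold, 3 were higher and 3 lower (all probes: 27.3% and 9.83%). At 6 h, 5 were higher and 4 lower in p6 than in np6 (all probes: 59.9% and 9.99%), all of them more than 2-fold (37.3% and 6.42%). The 4 mRNAs on the non-polysomal side were the same at both times, and their sign held under all 6 ways of processing the arrays. On the other side the sign depended on the scaling for Sesn2, Chac1, Ppp1r15b and Ifrd1, as given with each gene.

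**Figure D1:**
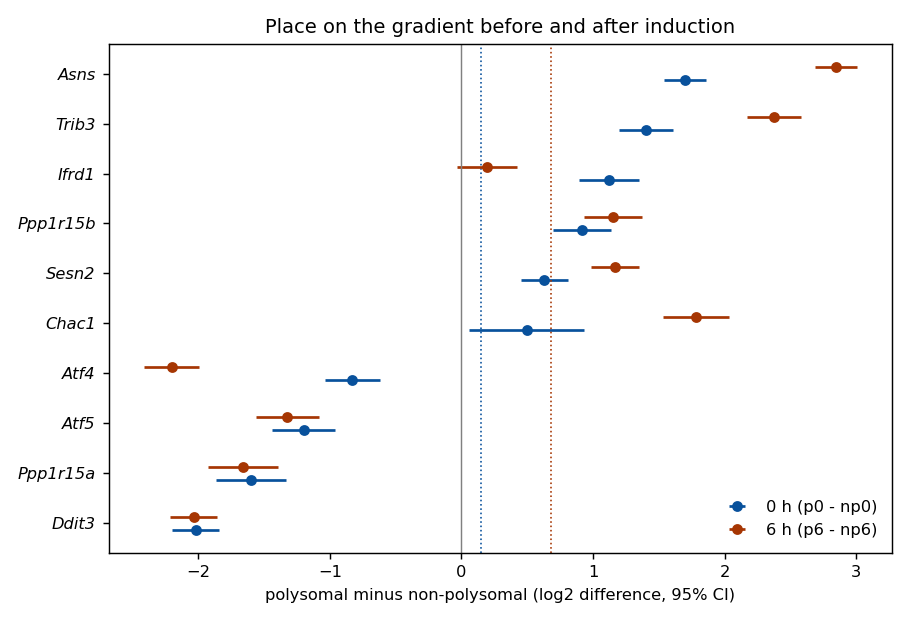
Polysomal minus non-polysomal log2 signal of each mRNA (points) with its 95% confidence interval (bars) at 0 h in blue and at 6 h in brown, 3 arrays a group; dotted lines mark the medians of all probes, 0.15 and 0.68. Without dim probes these medians are 0.76 and 1.21. Ddit3, Ppp1r15a, Atf5 and Atf4 lie left of 0 at both times, and Atf4 moves from -0.83 to -2.20.

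The second question was how the mRNAs changed in each fraction within 6 h. In the polysomal fraction 2 genes rose more than 2-fold (Ifrd1 and Ppp1r15b) and 3 fell more than 2-fold (Ddit3, Chac1 and Trib3), against 19.2% and 5% of all probes. Without the 2-fold limit 4 rose and 4 fell (all probes: 50.7% and 11.7%). In the non-polysomal fraction 2 rose (Ifrd1 and Atf4) and 3 fell (Chac1, Trib3 and Ddit3), against 8.12% and 8.11%, and without the 2-fold limit 4 rose and 5 fell (20.6% and 19.6%). The M-value passed the test for 4 genes above 0 (Chac1, Asns, Trib3 and Sesn2) and 2 below 0 (Atf4 and Ifrd1), against 32% and 4.01% of all probes. Of these, Asns and Chac1 had an M-value above 1 and Atf4 one below -1, so 2 of 10 were higher and 1 lower, against 12.1% and 1.32% of all probes. Scaled to the 75th percentile 0 were above 1 and 2 below -1, and after quantile normalization 0 were above and 3 below. The median M-value of all probes was then 0.06 and -7.5e-04. Shares of all probes were not counted under other scalings, here or for the lists below. With spike-in scaling the median over the 10 genes was 0.11 for the M-value, below the 0.49 of all probes.

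**Figure D2:**
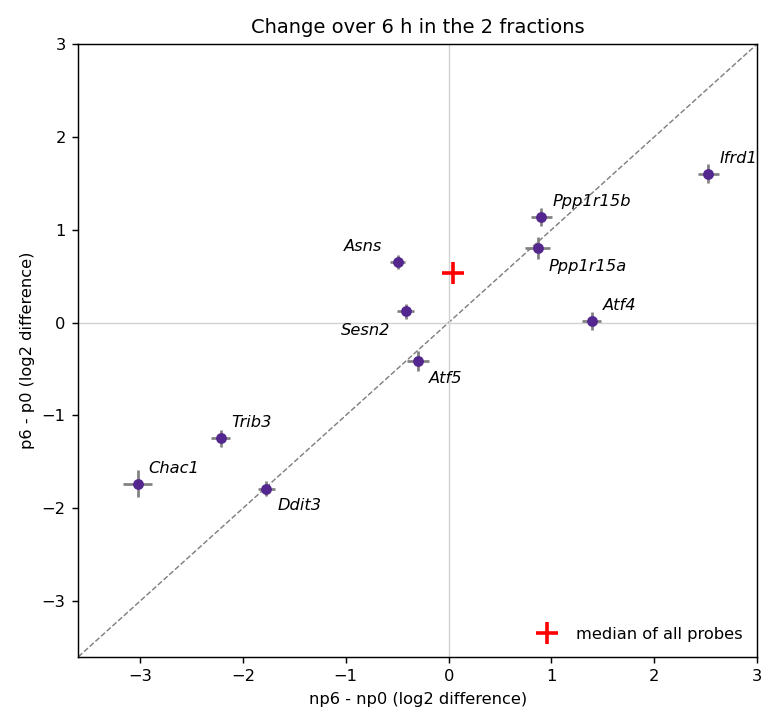
Log2 change over 6 h of each mRNA in the non-polysomal fraction (horizontal) and the polysomal fraction (vertical), with standard errors, 3 arrays a group except Chac1 with 1 array a group at 0 h. On the dashed line the M-value is 0; Atf4 and Ifrd1 lie below it, Trib3, Chac1, Asns and Sesn2 above it, and the red cross marks the median of all probes at 0.04 and 0.54.

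Atf4, the central transcription factor of the response, has uORFs in its leader and rose in the non-polysomal RNA alone. Its scaled log2 signal was 11.88, 12.02 and 11.89 in np0 and 13.33, 13.36 and 13.27 in np6. In the polysomal RNA it was 10.94, 11.25 and 11.11 in p0 and 11.04, 11.10 and 11.23 in p6. The non-polysomal arrays of the 2 times were thus far apart, while the polysomal arrays of the 2 times overlapped. The non-polysomal change was 1.39 ± 0.09 (SE, 3 arrays against 3), which is 2.62-fold, with an adjusted p of 1.0e-06 in limma. The polysomal change was 0.02 ± 0.09 with a 95% interval of -0.19 to 0.23 (adjusted p = 0.88), while the median of all probes there was 0.54. The difference between the fractions, the M-value, was -1.37 ± 0.13 (adjusted p = 4.9e-05), and it was -1.35, -1.50 and -1.27 on the 3 slides, each of which held 1 array of every group. Atf4 was 1.78-fold lower in p0 than in np0 and 4.60-fold lower in p6 than in np6. The M-value lay between -1.80 and -1.01 under all alternatives, and the polysomal change was -0.64 with quantile normalization and -0.47 with 75th percentile scaling.

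Atf5, a related factor whose mRNA has uORFs of the same arrangement, lay on the non-polysomal side at both times. The log2 signal was 16.98, 16.95 and 16.97 in np0 and 16.75, 16.73 and 16.54 in np6. It was 15.59, 16.02 and 15.69 in p0 and 15.36, 15.36 and 15.33 in p6. At both times every polysomal array was below every non-polysomal array. The difference between the fractions was -1.20 ± 0.11 at 0 h (adjusted p = 3.2e-06) and -1.32 ± 0.11 at 6 h (adjusted p = 1.2e-06). The polysomal signal fell by 0.42 on the log2 scale (adjusted p = 0.0077), and the non-polysomal change of -0.30 missed the limit (adjusted p = 0.054). The polysomal call was lost without replicate 2 (-0.30) and without replicate 3 (-0.45). The M-value was -0.12 with an interval of -0.47 to 0.22, and it passed the test at -0.55 with 75th percentile scaling (adjusted p = 0.0079) and at -1.34 with quantile normalization (adjusted p = 4.1e-05).

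Ddit3, which encodes CHOP, a C/EBP family member that blocks adipogenic C/EBP factors, fell in both fractions. On the np0 arrays the log2 signal was 11.96, 12.01 and 11.98, and on the np6 arrays 10.24, 10.15 and 10.25. It was 9.87, 10.03 and 10.00 in p0 and 8.04, 8.25 and 8.25 in p6. No array of 6 h reached an array of 0 h in the same fraction. The fall was 3.42-fold in the non-polysomal (adjusted p = 8.8e-08) and 3.45-fold in the polysomal RNA (adjusted p = 3.9e-08). Its M-value was -0.02 with an interval of -0.27 to 0.24. It passed the test on either side of 0 under other processing, with -0.44 after 75th percentile scaling (adjusted p = 0.0051), -0.28 after quantile normalization, 0.28 with normexp and 0.59 with a line through the spike-ins. Ddit3 had the lowest polysomal signal relative to non-polysomal among the members at 0 h, -2.02 ± 0.08, and the value at 6 h was -2.03 ± 0.08.

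**Figure D3:**
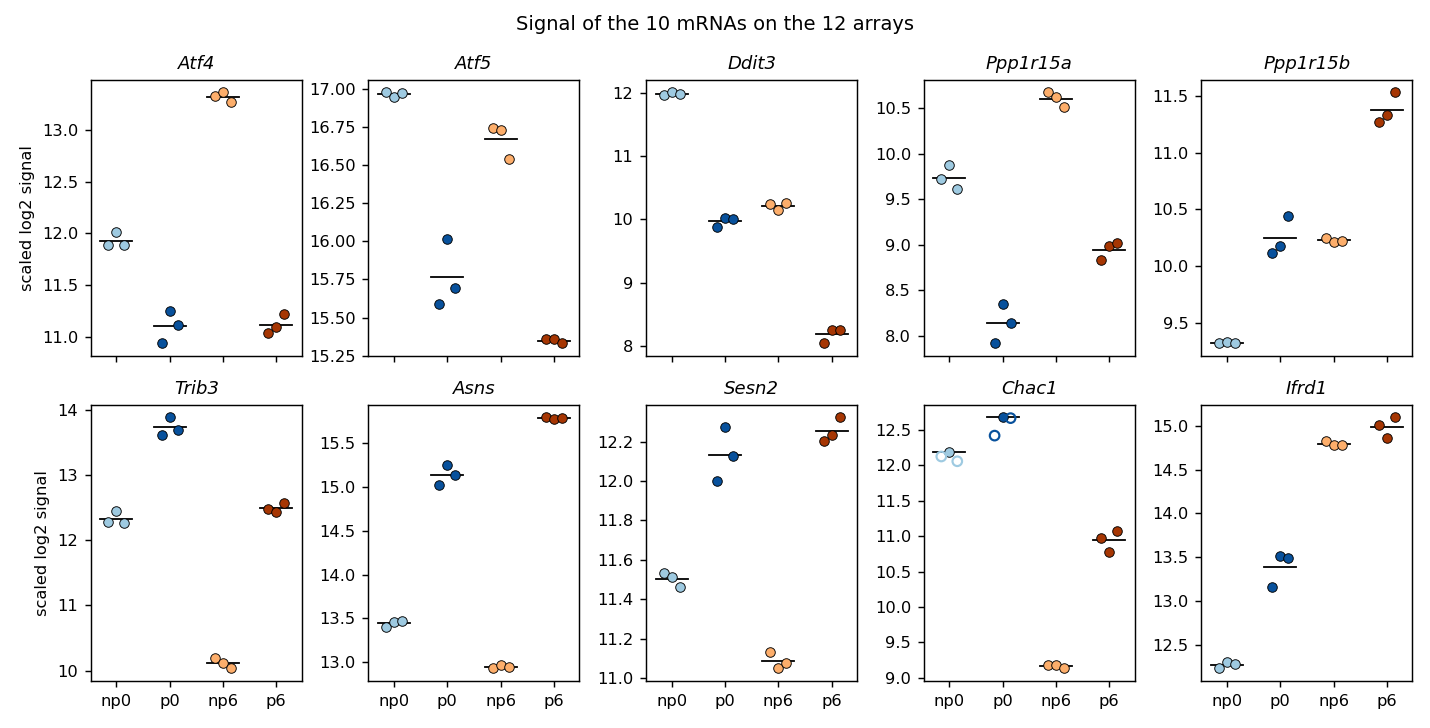
Scaled log2 signal of each mRNA on the 12 arrays (points, 1 per replicate) with the group mean (line); open points are spots of Chac1 that the scanner software marked as outliers and that the fit left out. Each panel has its own axis, since signals of different probes are not comparable; Atf4 is highest in np6, and Ddit3, Trib3 and Chac1 are lower at 6 h than at 0 h in both fractions.

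With spike-in scaling, the mRNAs of the 2 regulatory subunits that direct protein phosphatase 1 to eIF2 lay on opposite sides of the gradient. Ppp1r15a, the stress-induced subunit GADD34, had a log2 signal of 9.73, 9.88 and 9.62 in np0 and of 10.68, 10.62 and 10.51 in np6. In p0 it was 7.92, 8.35 and 8.14, and in p6 8.84, 8.98 and 9.02. It was thus higher at 6 h in both fractions, without overlap, and lower in the polysomal RNA at both times. The rise was 1.82-fold in the non-polysomal (adjusted p = 1.7e-04) and 1.75-fold in the polysomal RNA (adjusted p = 2.1e-04), with an M-value of -0.06 (interval -0.43 to 0.32). The M-value passed the test at -0.48 with 75th percentile scaling (adjusted p = 0.0091) and at -0.37 with quantile normalization, and on the other side of 0 at 0.52 with a line through the spike-ins. The polysomal signal was 3.04-fold below the non-polysomal at 0 h and 3.16-fold below it at 6 h.

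Ppp1r15b, the constitutive subunit CReP, whose mRNA also has uORFs, was on the polysomal side with spike-in scaling. Its log2 signal was 9.33, 9.33 and 9.32 in np0 and 10.25, 10.21 and 10.22 in np6. It was 10.12, 10.17 and 10.44 in p0 and 11.27, 11.33 and 11.53 in p6. It rose 1.87-fold in the non-polysomal (adjusted p = 3.3e-05) and 2.19-fold in the polysomal RNA (adjusted p = 4.3e-06), and the M-value of 0.23 did not pass the test (adjusted p = 0.20). The second probe rose by 1.25 and 1.19 in the 2 fractions, with an M-value of -0.07. The polysomal signal exceeded the non-polysomal by 0.92 at 0 h and by 1.15 at 6 h. These differences were 0.03 and -0.16 with 75th percentile scaling and 0.05 and -0.26 after quantile normalization, so the side of the gradient depended on the scaling.

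Trib3, a pseudokinase that is induced by ATF4 and CHOP and restrains both ATF4 and AKT signaling, fell in both fractions but less in the polysomal one. The log2 signal was 12.28, 12.45 and 12.27 in np0 and 10.19, 10.12 and 10.03 in np6. It was 13.62, 13.88 and 13.70 in p0 and 12.47, 12.43 and 12.56 in p6. The 6 h arrays were below the 0 h arrays in each fraction, and the polysomal arrays above the non-polysomal ones at each time. The fall was 4.65-fold in the non-polysomal (adjusted p = 5.0e-08) and 2.37-fold in the polysomal RNA (adjusted p = 1.2e-06). The M-value was 0.97 ± 0.13 (adjusted p = 3.1e-04). For the second probe it was 0.53 ± 0.14 (adjusted p = 0.016), close to the 0.49 of all probes. With quantile normalization the M-values of the 2 probes were 0.05 and 0.08, and neither passed the test. The second probe's call was also lost with 75th percentile scaling (0.11), without replicate 1 (0.54) and without replicate 3 (0.44).

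Asns, the asparagine synthetase gene and a classical ATF4 target, had the largest polysomal excess of the 10 mRNAs at both times. Non-polysomal log2 signals were 13.40, 13.45 and 13.47 in np0 and 12.93, 12.97 and 12.94 in np6. It was 15.02, 15.26 and 15.14 in p0 and 15.80, 15.78 and 15.79 in p6. The 2 fractions moved apart, with no overlap between the times in either. The polysomal RNA rose 1.57-fold (adjusted p = 2.4e-05) and the non-polysomal fell 1.41-fold (adjusted p = 2.4e-04). The polysomal excess was 3.24-fold at 0 h and 7.18-fold at 6 h, which are log2 differences of 1.70 and 2.84. These differences were 0.81 and 1.53 with 75th percentile scaling and 1.57 and 1.64 after quantile normalization. The M-value was 1.15 ± 0.10 (adjusted p = 2.9e-05), with 1.25, 1.01 and 1.19 on the 3 slides, against a median of 0.49 for all probes. Scaling to the 75th percentile gave 0.73, and quantile normalization gave 0.07 (adjusted p = 0.48) and a polysomal change of -0.68.

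Sesn2, a stress-induced inhibitor of mTORC1 that senses leucine, fell in the non-polysomal RNA. Non-polysomal log2 signals were 11.54, 11.52 and 11.46 in np0 and 11.14, 11.05 and 11.08 in np6. It was 12.00, 12.27 and 12.13 in p0 and 12.20, 12.23 and 12.32 in p6, so the polysomal arrays of the 2 times overlapped. The non-polysomal RNA fell 1.34-fold (adjusted p = 0.0017), and the polysomal change of 0.12 did not pass the test (interval -0.06 to 0.30, adjusted p = 0.22). The M-value was 0.54 ± 0.11 (adjusted p = 0.0046), near the median of all probes, and the call was lost without replicate 1 (0.50), without replicate 3 (0.51) and with 75th percentile scaling (0.11). The polysomal excess of 0.63 at 0 h and 1.17 at 6 h turned to -0.26 and -0.14 with 75th percentile scaling.

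Chac1, a glutathione-degrading enzyme induced through ATF4, had the largest fall of the 10 mRNAs in the non-polysomal RNA. At 0 h the spots of replicates 1 and 3 were marked as outliers by the scanner software in both fractions, so the fit used replicate 2 alone there. Its p-values take the spread from the 6 h arrays and from all probes, with the lone array assumed to vary like them. Its log2 signal in np0 was 12.19 in replicate 2 and 12.13 and 12.06 in the marked spots, and it was 9.18, 9.18 and 9.13 in np6. In p0 it was 12.68 in replicate 2 and 12.42 and 12.67 in the marked spots, and it was 10.98, 10.78 and 11.07 in p6. The marked spots were close to the spot that was kept, and all 0 h values were above all 6 h values. The fall was 8.13-fold in the non-polysomal (adjusted p = 1.3e-05) and 3.33-fold in the polysomal RNA (adjusted p = 1.3e-04), from 1 array against 3. With the marked spots kept, 3 arrays against 3, the changes were -2.97 (adjusted p = 1.5e-08) and -1.65 (adjusted p = 2.8e-07). The M-value was 1.29 ± 0.20 (adjusted p = 0.0048), and 1.32 with the marked spots kept (adjusted p = 8.2e-05). At 6 h the polysomal signal was 3.44-fold the non-polysomal one. At 0 h the difference was 0.49 (adjusted p = 0.063), 0.47 with the marked spots kept (adjusted p = 0.0020), and -0.42 with 75th percentile scaling.

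Ifrd1, a transcriptional coregulator whose mRNA carries a uORF that promotes its decay in cells without stress, had the largest rise. Its log2 signal was 12.23, 12.30 and 12.28 in np0 and 14.83, 14.78 and 14.78 in np6. It was 13.16, 13.52 and 13.49 in p0 and 15.01, 14.87 and 15.10 in p6. The times did not overlap in either fraction. With spike-in scaling the fractions lay far apart at 0 h and close together at 6 h. The rise was 5.76-fold in the non-polysomal (adjusted p = 4.5e-08) and 3.04-fold in the polysomal RNA (adjusted p = 4.3e-07). The M-value was -0.92 ± 0.14 (adjusted p = 8.0e-04), and it lay between -1.34 and -0.82 under the alternatives. The polysomal excess was 1.12 ± 0.10 at 0 h (adjusted p = 3.5e-06), and as low as 0.23 under the alternatives. At 6 h it was 0.20 ± 0.10 (adjusted p = 0.11), where quantile normalization gave -0.81 and 75th percentile scaling -1.11.

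**Figure D4:**
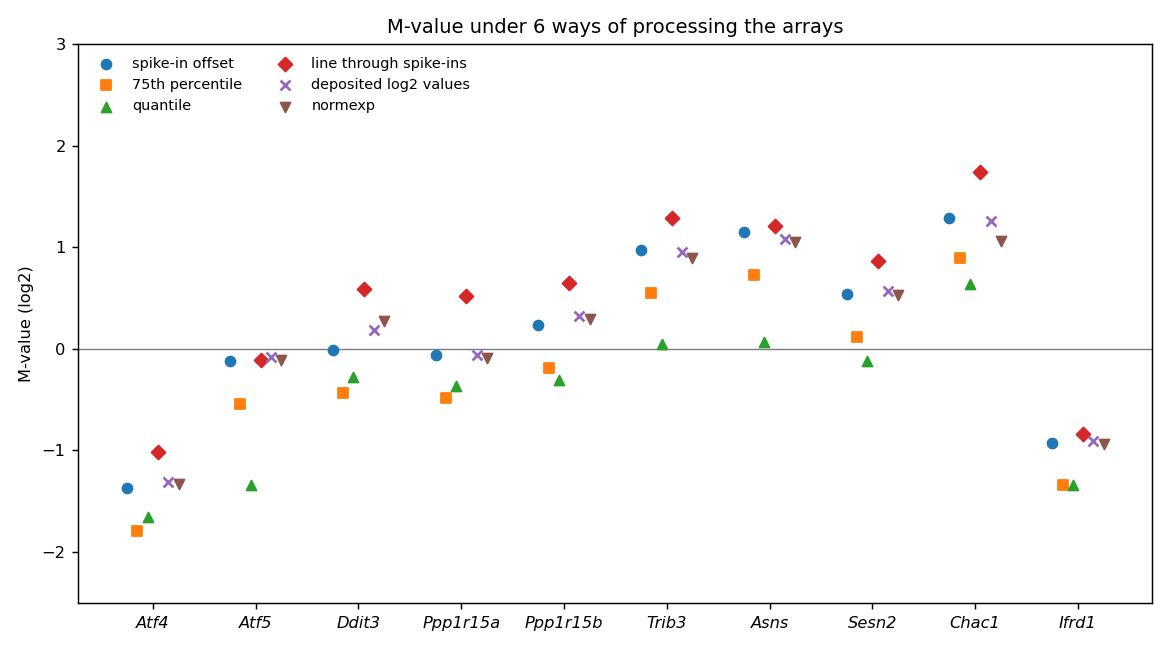
M-value of each mRNA (log2) under 6 ways of processing the same 12 arrays, 1 symbol for each. Atf4 and Ifrd1 are below 0 and Trib3, Asns and Chac1 above 0 in all 6, while Ddit3, Ppp1r15a, Ppp1r15b and Sesn2 change sign.

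The mRNAs for the machinery upstream of ATF4 were higher in the polysomal RNA. Of 16 genes for eIF2 kinases, eIF2 and eIF2B subunits and their regulators, 15 were on the array, and 14 were more than 2-fold higher in p0 than in np0, against 27.3% of all probes. The median was 1.89, against 0.15 for all probes and 0.76 without dim probes. Scaled to the 75th percentile the count was 8, with Eif2s3x at -0.36, and quantile normalized it was 11, with Eif2s3x at -0.30. Dnajc3 (2.83) and Nck1 (2.78), which act on PERK and on eIF2 dephosphorylation, were highest, and Eif2s3x, a subunit of eIF2, was lowest at 0.53. The M-value was above 1 for Eif2s3x (2.00, adjusted p = 5.9e-06) and Eif2b2 (1.30, adjusted p = 3.1e-05) and below -1 for none. These were 2 of 15 genes, against 12.1% of all probes above 1 and 1.32% below -1. With 75th percentile scaling, and also after quantile normalization, 1 gene of this list was above 1. The 4 kinases, given in full after their values were seen, changed in opposite pairs, in the same direction in both fractions. Eif2ak1, the heme-regulated kinase, rose by 1.44 in the polysomal and 1.42 in the non-polysomal RNA, and Eif2ak3, the ER stress kinase PERK, by 1.34 and 0.71. Eif2ak2, the RNA-activated kinase PKR, had changes of -1.12 and -0.75, and Eif2ak4, the amino acid sensor GCN2, of -1.10 and -0.84. All of these changes passed the test, and the signs were the same under all 6 ways of processing.

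Among 27 further ATF4 targets on the array, 8 had an M-value above 1 and none below -1, against 12.1% and 1.32% of all probes, with a median of 0.70 against 0.49 for all probes. The highest were Slc7a5 (1.76), the large neutral amino acid transporter, and the enzymes Pck2 (1.64) and Phgdh (1.51), which supply phosphoenolpyruvate and serine. In the non-polysomal RNA 1 of them rose more than 2-fold and 4 fell (all probes: 8.12% and 8.11%), Pck2 (-2.32), the cytokine Gdf15 (-1.86) and Phgdh (-1.26) most. In the polysomal RNA 5 rose more than 2-fold, Slc7a5 most (2.10), and Gdf15 fell (-2.24), against 19.2% and 5% of all probes. The balance turned with the scaling, to 1 higher and 3 lower with 75th percentile scaling and 1 higher and 4 lower after quantile normalization. At 0 h, 17 were more than 2-fold higher in the polysomal RNA and 4 lower (27.3% and 9.83%), the latter with the translation repressor Eif4ebp1 (-1.87) and the stress protein Nupr1 (-1.46). Scaled to the 75th percentile 3, and quantile normalized 1 of the 27 had an M-value above 1, and the count higher in p0 was 9 and 11. The probe of Slc7a3, a cationic amino acid transporter, was well above background on 6 arrays and its value is not given.

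**Figure D5:**
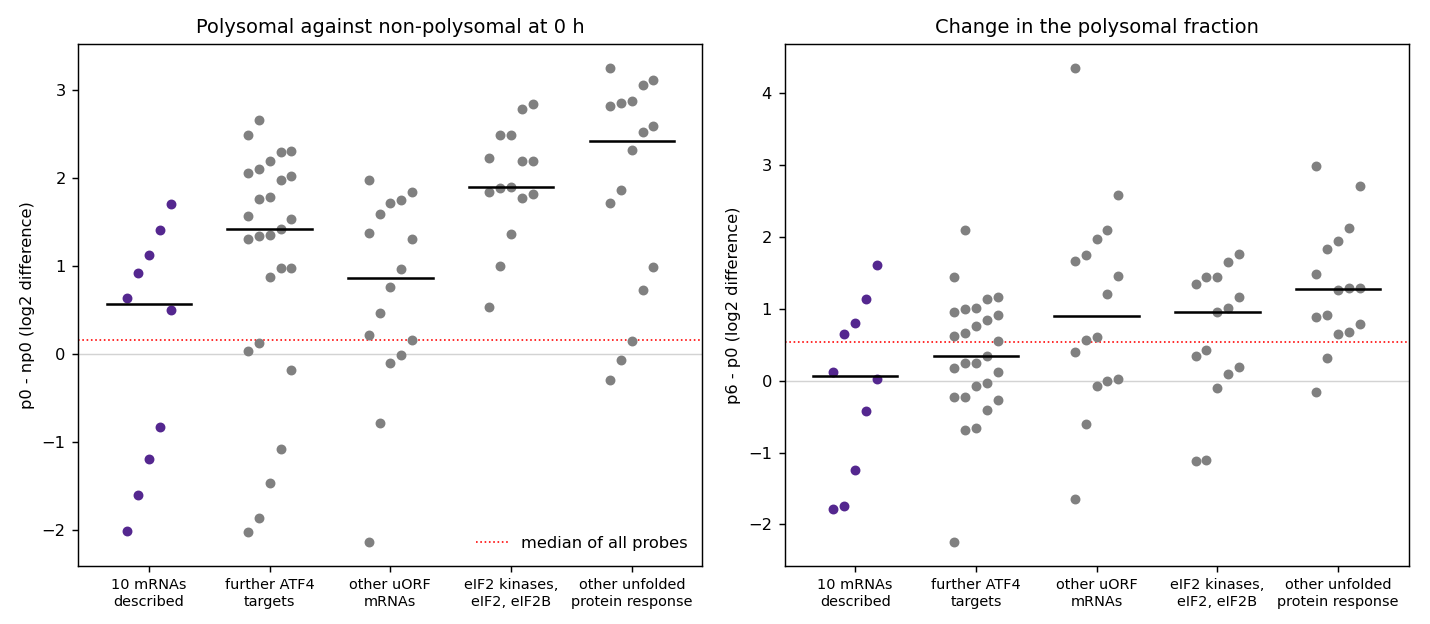
Log2 difference p0 - np0 (left) and p6 - p0 (right) of each gene (points) in the 10 mRNAs described and in 4 further lists, with the list's median (black line) and the median of all probes (dotted). At 0 h the 10 mRNAs have a median of 0.56 and the eIF2 list one of 1.89. The median of the array at 0 h without dim probes is 0.76. Probes not well above background on every array are included in the figure.

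Of 16 other mRNAs with known uORFs, 7 were more than 2-fold higher in p0 than in np0 and 1 was lower, against 27.3% and 9.83% of all probes. The median was 0.86, against 0.15 for all probes and 0.76 without dim probes. The count of 7 was 1, with a median of -0.03, when scaled to the 75th percentile. It was 2, with a median of 0.06, when quantile normalized. The lower one was Sat1, the spermidine acetyltransferase gene, at -2.14, and it stayed at -2.15 at 6 h while it rose by 1.98 in the polysomal and 1.99 in the non-polysomal RNA. Cebpb, an early factor of adipogenesis, rose by 4.36 in the polysomal and 2.82 in the non-polysomal RNA, with an M-value of 1.54 (adjusted p = 2.3e-05). Amd1, which makes the decarboxylated donor for polyamine synthesis, rose by 2.58 and 2.59, with an M-value of -0.01. The glucocorticoid receptor gene Nr3c1 had the lowest polysomal change of the list, -1.65. In all, 8 rose and 1 fell more than 2-fold in the polysomal RNA (all probes: 19.2% and 5%).

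Of 16 genes of the unfolded protein response outside its ATF4 arm, 15 rose in the polysomal RNA and 12 in the non-polysomal RNA, against 50.7% and 20.6% of all probes. More than 2-fold, 9 and 7 rose, against 19.2% and 8.12%. The median changes were 1.27 and 0.94, against 0.54 and 0.04 for all probes. The genes that did not pass, named after their values were seen, were Sel1l (-0.16) in the polysomal RNA and Atf6 (0.12), Ern1 (-0.0019), Herpud1 (-0.04) and Edem1 (-0.18) in the non-polysomal RNA. Xbp1, a transcription factor whose mRNA is spliced on ER stress, rose by 2.98 and 2.53, and Manf, a secreted ER factor, by 2.71 and 2.63. The ER chaperone gene Hspa5 rose by 1.94 and 2.18. The polysomal count of 9 was 5 when scaled to the 75th percentile and 4 after quantile normalization, where 9 of the 16 rose and 5 fell without the 2-fold limit. No M-value of the list was above 1 or below -1, while 1 was below -1 with 75th percentile scaling, 3 were below it after quantile normalization and 3 were above 1 with a line through the spike-ins.

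The 5 genes whose signal over the 12 arrays was most like that of Atf4, among 16585 probes with a symbol and well above background on every array, were Ntan1 (Pearson r of 0.978), Selenot (0.975), Zfp617 (0.972), Spag1 (0.972) and Olfr1170 (0.972). The arrays fall into 4 groups, so these values mostly describe the 4 group means. The M-values of the 5 genes ran from -1.41 (Olfr1170) to -0.65 (Zfp617), against -1.37 for Atf4.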

How the data were processed

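RNA from polysomal and non-polysomal gradient pools of 3T3-L1 cells at 0 h and 6 h was hybridised to 12 one-color arrays, 3 in each of 4 groups by their labels. The scanner files deposited by the authors (Feature Extraction 10.7.1.1) hold an intensity per spot, from which the software had subtracted the background and removed spatial trends without scaling the arrays to each other, with marks of 0 or 1 for outliers, saturation and spots well above background. The value table deposited by the authors holds log2 values per probe, used as an alternative. Of the probes, 64.8% were paired with a symbol through RefSeq accessions.

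Log2 of the processed signal was used, spots marked as outliers were left out (484 probe values were then missing), spots of a probe were averaged, and each array was shifted by the mean of 10 spike-in transcripts with 32 spots each. Group means were fitted to all probes in R 4.3.3 with limma 3.58.1 (lmFit, eBayes, Benjamini-Hochberg adjustment), with tables read by data.table (version 1.17.8). A call needs an adjusted p below 0.05, and counts named as more than 2-fold also a log2 difference beyond 1 or -1. The code was tested on simulated data. The precision is limited by 3 arrays a group.

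Every member gene was named, and of each further list at most the 3 highest and the 3 lowest called differences per comparison, with exceptions stated. The members and lists were chosen with earlier results of these data known. Alternatives were quantile normalization, scaling to each array's 75th percentile, a line fitted to the spike-ins, the deposited log2 values and normexp background correction (offset 50). The normexp correction used the median pixel signals because mean signals were not available. Further alternatives were no dim probes, outliers kept, the slide as a block, a variance trend and gene means. Fits on the arrays of a contrast alone and fits leaving out replicates or single arrays were also run. The replicate number is also the slide. Correlations of deviations between same-numbered arrays ran from -0.05 to 0.15, above 0.1 in 1 of 18 pairs, so the numbers were not taken as pairs.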

Additional observations from a re-analysis of the deposited data

Results flagged for a closer look

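For 3 mRNAs the M-value passed the test against 0 (limma, Benjamini-Hochberg adjustment over all probes) and its estimate was above 1 or below -1. Whether the fractions differed by more than 2-fold was not tested. The confidence interval of the M-value was -1.67 to -1.08 for Atf4, all below -1. For Asns it was 0.92 to 1.37, which reached below 1. That of Chac1 rests on 1 array in each fraction at 0 h and is not given. Atf4 had an M-value of -1.37 (adjusted p = 4.9e-05), with a change of 1.39 in the non-polysomal and 0.02 in the polysomal RNA. It was negative on all 3 slides, and its adjusted p was between 1.12e-08 and 0.0113 under 25 alternatives. Asns had an M-value of 1.15 (adjusted p = 2.9e-05), positive on all 3 slides, with changes of -0.50 and 0.65, and its adjusted p reached 0.476 under quantile normalization. The median M-value of all probes was 0.49, and 12.1% of all probes passed the test with an M-value above 1. Chac1 had an M-value of 1.29 (adjusted p = 0.0048), with changes of -3.02 and -1.74. At 0 h it rests on 1 array in each fraction, which is assumed to vary like the other groups, and with the marked spots kept, 3 arrays in every group, the M-value was 1.32 (adjusted p = 8.2e-05).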

How the results depend on the processing

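Of 1528 values of the 12 probes under the alternatives, 1442 kept their direction and their side of the limit, 30 passed it where they had not before, 14 no longer passed and 42 changed sign. The cause was not tested. Scaled to the 75th percentile, 0 genes had an M-value above 1 and 2 below -1, 1 rose more than 2-fold in the polysomal RNA, and 0 at 0 h and 2 at 6 h were more than 2-fold higher in it. The M-value of Ppp1r15b was then -0.19, and the polysomal changes of Atf4 and Sesn2 were -0.47 and -0.37. The difference between fractions was -0.26 for Sesn2, -0.42 for Chac1 and -0.18 for the second Ppp1r15b probe at 0 h, and -0.16 and -0.67 for the Ppp1r15b probes, -0.14 for Sesn2 and -1.11 for Ifrd1 at 6 h. After quantile normalization the same counts were 0, 3, 0, 1 and 1. The M-values of Ppp1r15b and Sesn2 were -0.30 and -0.12, and the polysomal changes of Atf4, Asns and Sesn2 were -0.64, -0.68 and -0.70. The difference between fractions was -0.12 for Sesn2 and -0.26 for Chac1 at 0 h, and -0.26 and -0.50 for the Ppp1r15b probes, -0.24 for Sesn2 and -0.81 for Ifrd1 at 6 h.

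With a line through the spike-ins the M-values of Ddit3, Ppp1r15a and the second Ppp1r15b probe were 0.59, 0.52 and 0.64. For Ddit3 and the second Ppp1r15b probe they were 0.19 and 0.17 with the deposited log2 values and 0.28 and 0.21 with normexp. With single replicates or arrays left out, the M-value ranged from -0.221 to 0.0359 for Atf5, from -0.0662 to 0.0545 for Ddit3, from -0.167 to 0.0506 for Ppp1r15a and from -0.165 to 0.0202 for the second Ppp1r15b probe, and the polysomal change of Atf4 from -0.064 to 0.105. The count above 1 ranged from 1 to 3 and was 1 without np0 replicate 2, and the count below -1 ranged from 1 to 2 and was 2 without replicate 1 or without p0 replicate 1. Where an array left out was the lone Chac1 value at 0 h, Chac1 could not be fitted. Fits on the arrays of a contrast alone were not run for the M-value, which needs all groups.

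The replicate block, the slide, changed no call of a member. With it the counts for the M-value stayed at 2 above 1 and 1 below -1, and over all probes 14140 M-values passed the test against 14815 without it, 13554 of them in both. Of the 12 arrays, 3 correlated best with their own number in every other group. No array had a member at background level, so every value is measured and none is a bound.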
